A study of Rattus norvegicus with 6 samples.

Results

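Heat-shock proteins and their co-chaperones are the cell's protein-folding machines, and this account covers 73 of their genes in H9c2 cells after hypoxia and reoxygenation (H/R). The genes were taken by symbol, from coding probes whose accession names a rat gene: the heat-shock protein genes (Hsp), the J-domain protein genes (Dnaj), Bag1 to Bag6, the heat shock factor genes Hsf1 and Hsf2, and the subunits of the chaperonin TRiC from Cct2 to Cct8. The endoplasmic reticulum (ER) members Hspa5, Hspa13, Hsp90b1, Dnajb9, Dnajb11 and Dnajc3 were left out. The 73 stand among 13823 coding genes whose probes received a symbol. The rule goes by symbol, so the group is not wholly cytosolic. It also took mitochondrial proteins, among them Hspa9, Hspd1, Hspe1, Dnaja3, Dnajc11, Dnajc15, Dnajc19 and Dnajc30. ER proteins were taken too, among them Dnajb12, Dnajc10 and Dnajc18.

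H9c2 is a clonal myoblast line from embryonic rat heart, so all samples come from 1 line and not from separate animals. RNA was measured on 1-colour Agilent arrays in 3 H/R samples and 3 control samples. For H/R, cells deprived of serum and glucose were held for 1 h in 1% O2, 5% CO2 and 94% N2 and then for 3 h at normal oxygen, and the control group is described as normoxic. Maintenance medium held 10% serum and 4500 mg/L glucose, the labels do not name the medium of control cells during the experiment, and 1 protocol field names mouse cortex as the RNA source, against every other label.

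The study speaks of 3 independent experiments per group, but within either group replicates 2 and 3 share a slide position and stem from different scans. They differed by a median of 0.0219 (H/R) and 0.0229 (control) on the log2 scale per spot, against 0.121 to 0.127 for other pairs within a group. Their mean was therefore taken as array 2 beside replicate 1 as array 1, so n = 2 arrays per group for every value below. No label links a file to its own culture, and the p-values cover just the variation among 4 arrays, part or all of which may be technical. Of the non-control spots 71.1% and 69.4% were well above background in the scans of H/R array 2. The other files had 58.4% to 61.7%, and 0 spots were saturated in any file. Of 13 muscle markers with a matched probe 12, Des, Myod1 and Tnnt2 among them, were well above background in all 6 files, and the calcium channel gene Ryr2 in none. All 7 mesenchymal markers with one were above background throughout. So were 4 of 8 leukocyte markers (Cd68, Csf1r, Aif1 and Cd14) and 1 of 3 endothelial markers (Tek). The leukocyte genes Ptprc, Adgre1 and Itgam and the endothelial genes Pecam1 and Cdh5 were above background in no file.

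Chaperones of the HSP70 and HSP90 families bind unfolded stretches of other proteins and use ATP to release them for folding. J-domain proteins bring substrates to HSP70 and switch on its ATPase, and BAG and HSP110 proteins exchange its nucleotide. Small HSPs hold denatured proteins without ATP, and TRiC encloses actin and tubulin while they fold. When unfolded proteins accumulate, heat shock factor 1 (HSF1) binds repeated GAA units in the promoters of many of these genes and induces them, and in heart muscle Hspb1, Cryab and inducible HSP70 are best known for protection against ischaemia.

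The heat-shock genes gave no broad rise or fall after H/R. Of the 73 genes 68 could be tested, since every scan of H/R, of control or of both showed their probes well above background. The other 5 (Cct8l2, Dnajb3, Dnajb7, Dnajb8 and Dnajc13) were above background in no file. Of the 68 tested, 8 were higher and 6 lower in H/R with limma's p below 0.05 after Benjamini-Hochberg adjustment across 15899 probes, which is 11.8% and 8.82%, or 20.6% in all. Over all 10001 coding genes tested, 16.2% were higher and 9.62% lower, or 25.8% in all, so with this scaling neither share of the members was above that of all coding genes. The median difference, H/R minus control, was 0.04 on the log2 scale over the 68 members and 0.07 over all coding genes tested. Only Dnajc21 among the members was called with a change of at least 2-fold, against 6.53% of all coding genes. H/R and control scans did not overlap for 42 of the 68 members, or 61.8%, against 66.1% of all coding genes. These shares describe the group and were not tested as a list. The role groups below hold fewer genes, and their shares were not tested either. Signals are given as log2 relative to the array's own 75th percentile, apart from the summed marker signals.

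**Figure D1:**
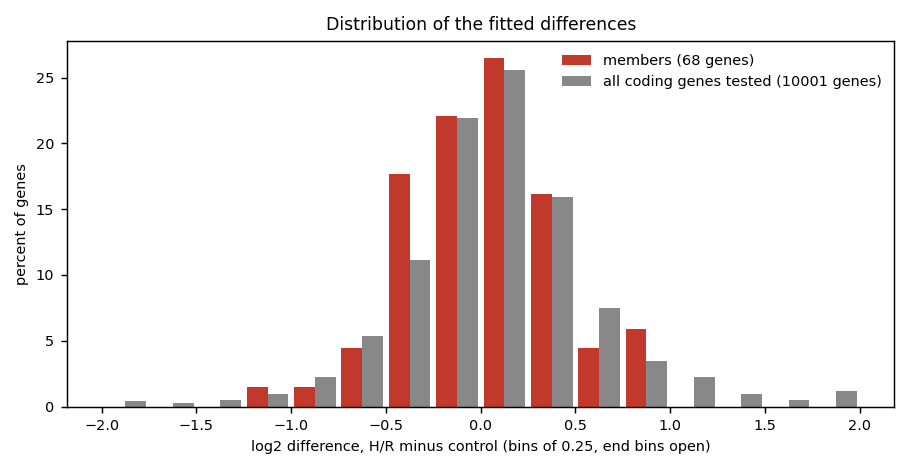
Percent of genes (vertical axis) by fitted log2 difference, H/R minus control (horizontal axis, bins of 0.25, end bins open), for the 68 members tested and for all 10001 coding genes tested. The members peak at the same small differences as all genes and lack the long tail beyond 1 on the right; 17.6% of members and 25.5% of all coding genes lie beyond 0.5 in either direction.

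The counts of rises and falls depended on the scaling and on single arrays. With each array's median subtracted in place of its 75th percentile, 4 members were higher and 13 lower (5.88% and 19.1%, against 11% and 14.9% of all coding genes). With quantile scaling 5 were higher and 10 lower (7.35% and 14.7%, against 14.1% and 11.3%). The members' share of falls was thus above that of all coding genes in these scalings and below it with the 75th percentile, and that difference in shares was not tested. Median scaling moved the median over all probes to -0.06 from 0.07, so changes are stated relative to the 75th percentile. In these scalings the 14 called members kept their direction. All 14 had the same sign within the first scan (replicates 1 and 2) and within the second (replicate 3). As their H/R and control scans did not overlap, these within-scan checks could not have come out otherwise. With 1 array left out, 0 to 7 members were higher and 1 to 4 lower. Fewer of all coding genes passed with 1 array left out as well. Without the filter on dim probes 0 members were higher and 1 lower, where 2.42% of all probes passed. With normexp background correction 0 of all 15899 probes passed, members included, with 2044 probes and 12 members at an unadjusted limma p under 0.05.

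**Figure D2:**
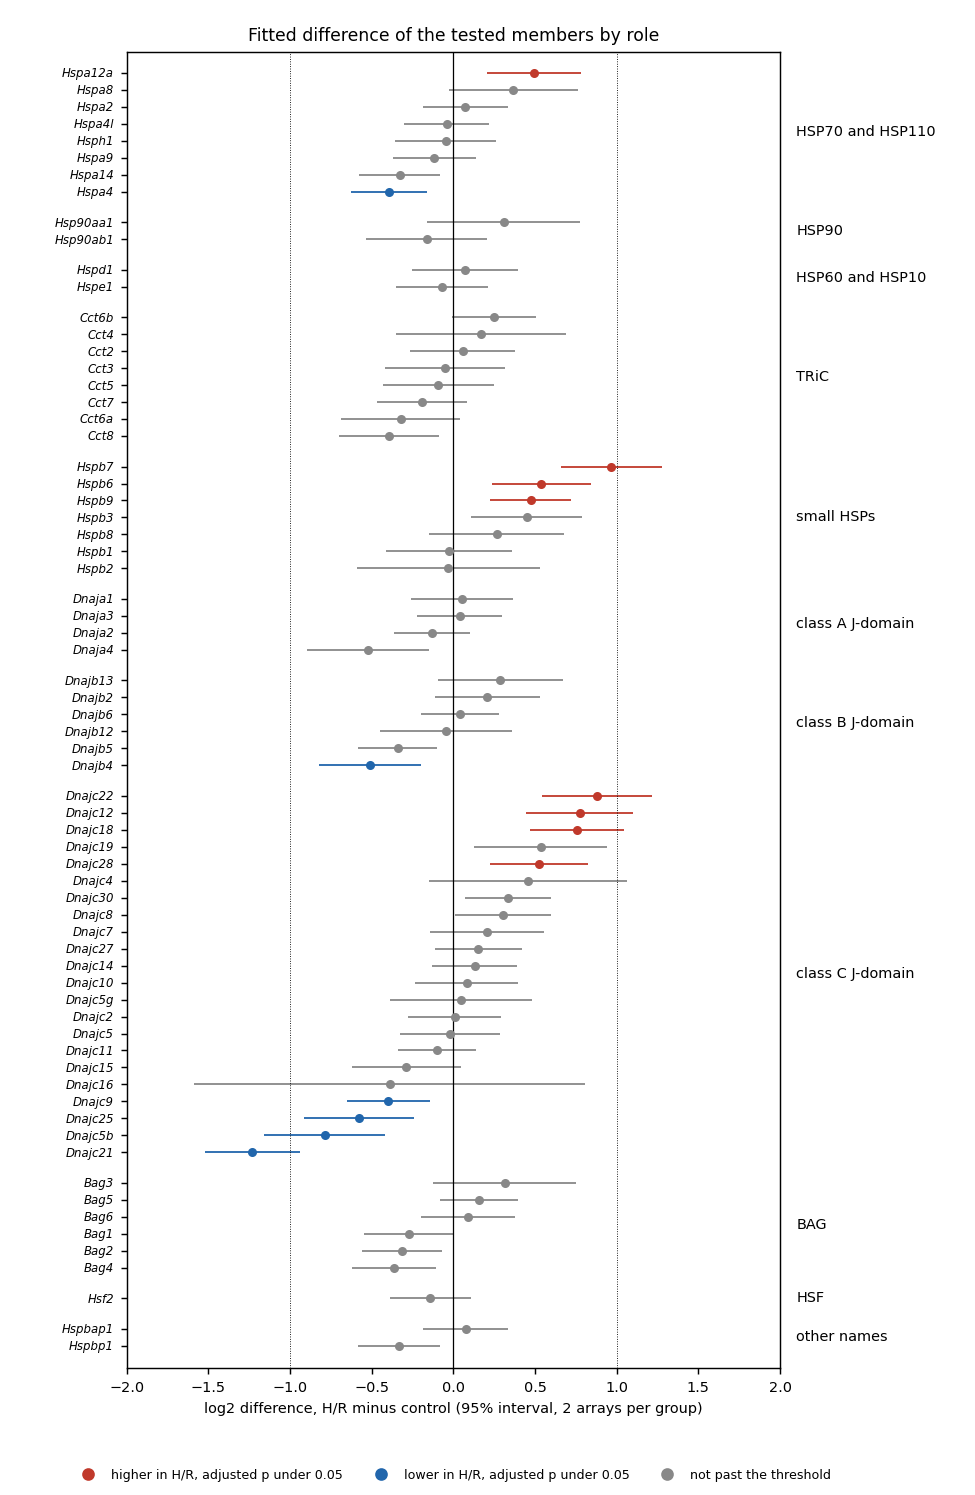
Fitted log2 difference, H/R minus control, with its 95% interval for each of the 68 tested members (horizontal axis; dotted lines mark 2-fold), grouped by role down the page. Rises and falls past the threshold are in colour and lie mainly among the small HSPs and the class C J-domain genes, and Dnajc21 is the only point beyond 2-fold.

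Genes that HSF1 is known to induce on heat gave no rise past the threshold. Of 17 such genes listed, 14 had a matched probe. All 14 were tested: 0 rose, 2 fell, and the median difference was 0.01. Of all coding genes tested 16.2% rose and 9.62% fell, and 14 genes are too few to set their counts against these shares. The 2 that fell were Hspa4 and Dnajb4. By unadjusted limma p under 0.05 the same number, 2, passed, against 25 of the 68 members and 6309 of all 15899 probes. A missed threshold does not show that a gene stayed level, so the intervals matter here. For all 14 the 95% interval of the difference ended below a 2-fold rise, and the highest upper end was that of Hsp90aa1, at 1.71-fold. These intervals use a spread drawn towards that of all probes. Without H/R array 2 the interval of Hsp90aa1 reached 2.06-fold. The main heat-inducible HSP70 genes Hspa1a and Hspa1b, the inducible J-domain gene Dnajb1 and Hsf1 itself were not matched to a probe and are not analysed here; 1049 of the 15323 coding probes received no symbol, and whether probes for these genes lie among them was not settled. The most strongly inducible genes of the response are thus missing from these counts. Single arrays carried some of the spread. Control array 1 lay below control array 2 for 11 of the 14 genes, and H/R array 1 below H/R array 2 for 5 of the 14.

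**Figure D3:**
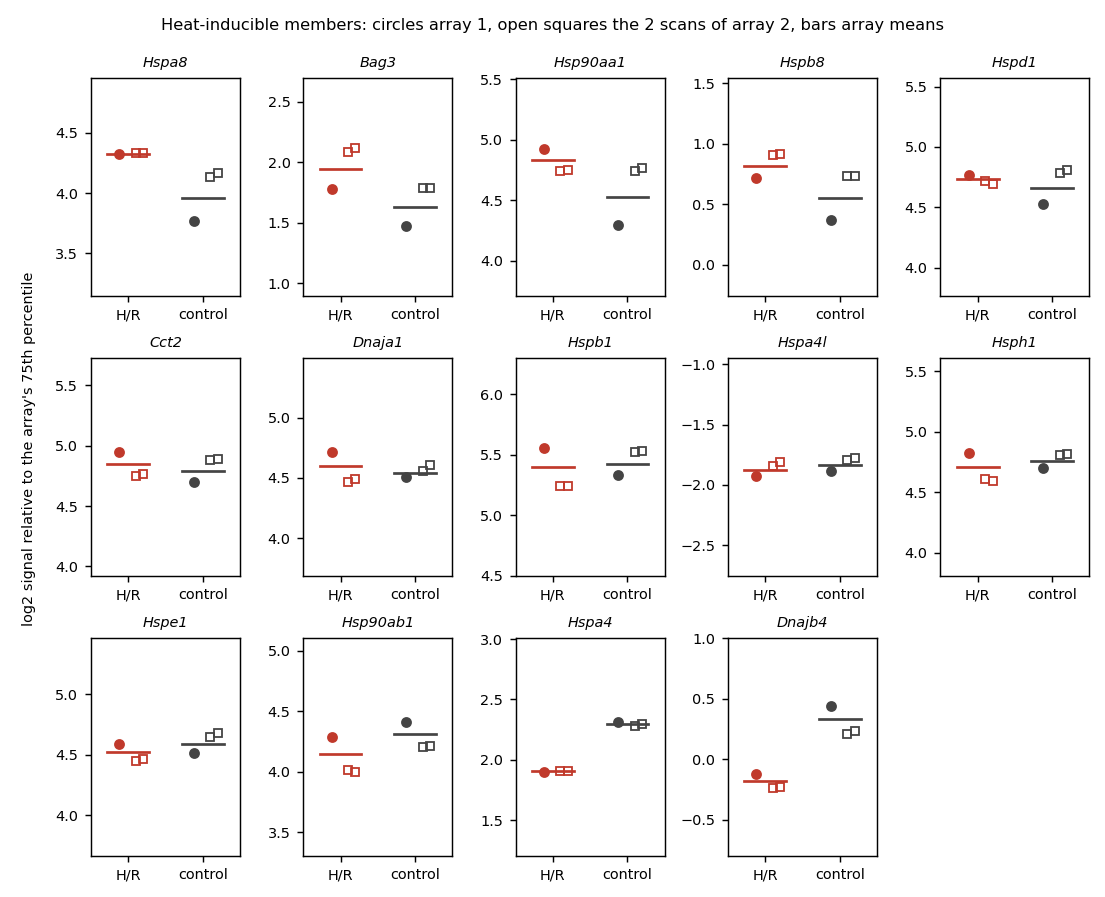
Log2 signal relative to the array's 75th percentile (vertical axis, each panel spanning 1.8 units) in every scan of the 14 heat-inducible members, H/R at the left and control at the right of each panel. Circles are array 1, open squares the 2 scans of array 2 and bars the mean of the arrays; in most panels the groups overlap, and Dnajb4 and Hspa4 are the panels where H/R lies below control past the threshold.

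Promoter stretches that hold the sequence HSF1 reads are shown for 5 heat-inducible genes and for Hspb6, a member past the threshold. Promoter windows from 250 bases before to 50 after the start (RefSeq, build GRCr8) were matched for 60 of the 73 members and searched on both strands for a pair of units, GAANNTTC or TTCNNGAA, and for a triple, GAANNTTC with NNGAA after it or TTCNNGAA with NNTTC after it. Each pair motif reads the same on both strands, and each triple contains both pair motifs. A triple was found in 5 of 12 windows of heat-inducible members (41.7%), in 6 of 60 member windows (10.0%) and in 0.798% of all 33469 windows. A pair was found in 75% of the heat-inducible, 33.3% of the member and 15.9% of all windows, and in the heat-inducible windows of Hspa4, Hsp90ab1 and Cct2 neither was found. Of 8634 windows of coding genes tested on the array, 0.521% held a triple and 12.2% a pair. In the stretches below, all before the start and read 5′ to 3′ on the gene's strand, capitals mark the elements.
Hspa8, chr8:50080439-50080491, plus strand: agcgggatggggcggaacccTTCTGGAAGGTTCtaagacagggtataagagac
Hsph1, chr12:10427312-10427364, plus strand: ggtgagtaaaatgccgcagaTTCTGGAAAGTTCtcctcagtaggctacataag
Hspe1, chr9:64084242-64084299, plus strand: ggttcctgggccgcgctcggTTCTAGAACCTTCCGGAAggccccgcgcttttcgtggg
Hspb1, chr12:26432383-26432450, minus strand: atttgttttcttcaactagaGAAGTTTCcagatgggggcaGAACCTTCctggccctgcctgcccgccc
Bag3, chr1:192533308-192533355, plus strand: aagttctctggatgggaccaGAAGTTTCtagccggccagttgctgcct
Hspb6, chr1:94934122-94934160, plus strand: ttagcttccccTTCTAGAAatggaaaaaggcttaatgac
The element shown for Hspe1 lies between Hspe1 and Hspd1, which are transcribed away from each other, and the same bases were found in the Hspd1 window on the other strand. This 1 element thus counts in 2 of the windows with a triple given above. Of the members printed, only Hspb6, with a pair, is past the threshold. Of the 9 called members with a window 2 held a pair and 0 a triple. A match describes letters in the window and not binding.

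Among the HSP70 and HSP110 genes 1 of 8 rose and 1 fell (12.5% each, against 16.2% and 9.62% of all coding genes). Hspa8, the constitutive HSP70 (Hsc70) whose triple element is printed above, read 4.32, 4.33 and 4.33 in H/R scans 1 to 3, against 3.77, 4.13 and 4.17 in control scans. All H/R scans lay above all control scans, but the 2 control arrays differed by 0.38, as much as the groups. Its difference was 0.37 ± 0.15 (moderated SE here and below; 95% interval -0.03 to 0.76, adjusted p = 0.146), and without control array 2 it was 0.56 and passed (adjusted p = 0.0490). Hsph1, an HSP110 nucleotide exchange factor with a triple element near its start, read 4.82, 4.61 and 4.60 in H/R scans, against 4.70, 4.81 and 4.82 in control scans. The groups overlapped, and the difference was -0.05 ± 0.12 (interval -0.36 to 0.26). Hspa4, another member of the HSP110 branch, read 1.90, 1.91 and 1.91 in H/R scans, against 2.31, 2.28 and 2.30 in control scans. It fell by 0.39 ± 0.09 (to 0.762 of control, adjusted p = 0.0380), with close arrays in both groups. Hspa12a, an atypical HSP70, read -6.56, -6.73 and -6.67 in H/R scans, against -7.04, -7.39 and -7.01 in control scans. It rose by 0.49 ± 0.11 (1.41-fold, adjusted p = 0.0372), close to background. With 3 of 3 H/R scans but 1 of 3 control scans well above background, it was tested only through the group where it is higher, so its count among the rises carries little, and with quantile scaling the difference was 0.24 (adjusted p = 0.266). The mitochondrial HSP70 gene Hspa9 differed by -0.12 ± 0.10, Hspa2, best known from the testis, by 0.07 ± 0.10 and Hspa14, which works with a J-domain protein at the ribosome, by -0.33 ± 0.10. None of these 3 passed (adjusted p = 0.422, 0.624 and 0.0687).

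The HSP90 genes did not pass in either direction. Hsp90aa1, the stress-inducible cytosolic HSP90, read 4.92, 4.74 and 4.75 in H/R scans, against 4.30, 4.74 and 4.76 in control scans. Control array 1 was the low value, with 0.46 between the control arrays, and the groups overlapped. The difference was 0.31 ± 0.18 (interval -0.16 to 0.78, adjusted p = 0.262). Hsp90ab1, its constitutive relative, read 4.29, 4.01 and 4.0 in H/R scans, against 4.41, 4.20 and 4.21 in control scans. It differed by -0.16 ± 0.14 (interval -0.53 to 0.21, adjusted p = 0.437), and its second probe by -0.12. The files hold no probe sequences, so binding of RNA from near-identical relatives was not tested.

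The chaperonins did not move past the threshold. The mitochondrial pair Hspd1 (HSP60) and Hspe1 (HSP10), which share the promoter element printed above, gave differences of 0.07 ± 0.13 and -0.07 ± 0.11. Hspd1 read 4.77, 4.72 and 4.69 in H/R scans, against 4.53, 4.78 and 4.81 in control scans. Hspe1 read 4.58, 4.45 and 4.47 in H/R scans, against 4.52, 4.65 and 4.68 in control scans. The groups overlapped for both genes, and their intervals ran from -0.25 to 0.40 and from -0.35 to 0.21. Of 8 TRiC genes tested 0 rose and 0 fell, where 16.2% and 9.62% of all coding genes did. Of the 8, 1 stood at an unadjusted limma p under 0.05, as did 6309 of all 15899 probes, and the median was -0.07. Cct8 had the largest negative difference, -0.39 ± 0.12 (adjusted p = 0.0726), and Cct6b, a testis-enriched subunit, the largest positive, 0.25 ± 0.10 (adjusted p = 0.136). Cct2 read 4.94, 4.75 and 4.76 in H/R scans, against 4.70, 4.88 and 4.89 in control scans, a difference of 0.06 ± 0.12.

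Among the 7 small HSP genes tested, 3 rose, where 16.2% of all coding genes did, and 0 fell, with 0.45 as their median difference. Of the 3, Hspb9 did not pass with quantile or median scaling (adjusted p = 0.0571 and 0.0785), nor Hspb6 with median scaling (adjusted p = 0.0717). Hspb7, which encodes a small HSP enriched in heart and blood vessels, read 1.64, 1.80 and 1.79 in H/R scans, against 0.65, 0.85 and 0.83 in control scans. The groups were far apart relative to their arrays, and Hspb7 rose by 0.97 ± 0.12 (1.96-fold, adjusted p = 0.00876). Hspb6, which encodes the muscle protein HSP20, read 2.28, 2.07 and 2.04 in H/R scans, against 1.66, 1.60 and 1.60 in control scans. It rose by 0.54 ± 0.12 (1.45-fold, adjusted p = 0.0337), with every H/R scan above every control scan. Scans of the groups did not overlap in either direction for 66.1% of all coding genes. Hspb9, known from the testis, read -4.42, -4.35 and -4.33 in H/R scans, against -4.89, -4.83 and -4.80 in control scans, and rose by 0.47 ± 0.10 (1.39-fold, adjusted p = 0.0286). Hspb3, a muscle small HSP, differed by a similar 0.45 ± 0.13 but did not pass (adjusted p = 0.0687).

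The small HSPs best known from stress did not pass the threshold. Hspb1 (HSP27 in humans) read 5.56, 5.24 and 5.24 in H/R scans, against 5.33, 5.52 and 5.53 in control scans. The order of the arrays was opposite in the groups, and the difference was -0.03 ± 0.15 (interval -0.41 to 0.36). Hspb8, which works with the BAG3 protein in selective autophagy, read 0.72, 0.91 and 0.91 in H/R scans, against 0.37, 0.73 and 0.73 in control scans, a difference of 0.26 ± 0.16 (adjusted p = 0.273). Hspb2 differed by -0.03 ± 0.22, and Cryab, the small HSP alpha-B crystallin outside the symbol rule, by 0.14 ± 0.13 (adjusted p = 0.925 and 0.443).

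Some muscle genes passed the threshold in the same arrays as Hspb6 and Hspb7, and most did not. Of 12 muscle markers tested, 3 rose and 1 fell, where 16.2% and 9.62% of all coding genes did; the marker lists are too short to set their shares against these. Cardiac troponin T (Tnnt2) rose by 1.13 ± 0.09, the cardiac myosin gene Myh6 by 0.99 ± 0.09 and muscle creatine kinase (Ckm) by 1.22 ± 0.28, and the myogenic factor gene Myod1 fell by 1.48 ± 0.18 (adjusted p at most 0.0398). The others did not pass: Tnni3 (0.78), Des (0.70), Myh7 (0.23), Myog (0.06), Actc1 (0.05), Acta1 (-0.25), Nkx2-5 (-0.35) and Gata4 (-0.35). The H/R arrays differed by 0.80 for Ckm and by 1.93 for Des. The summed signal of the 13 markers, each relative to the array's 75th percentile, was 17.5 to 20.3 in H/R scans and 18.3 to 20.1 in control scans, and Ryr2 was not well above background in any. Of 7 mesenchymal markers 3 rose (Lum, Dcn and Pdgfrb) and 0 fell, with a summed signal of 89.3 to 91.3 in H/R scans and 68.6 to 82.5 in control scans. Of 4 leukocyte markers tested 0 passed, at 1.25 to 1.29 in H/R scans and 1.14 to 1.27 in control scans for the 8 with a matched probe, and the 1 endothelial marker tested, Tek, rose, at 0.0963 to 0.116 in H/R scans and 0.0506 to 0.0549 in control scans for the 3 with one. Such sums weigh the brightest genes most, among them Myod1 and Tnnt2, Vim, Col1a2 and Col3a1, and Cd14. Myod1 fell and Tnnt2 rose, so similar muscle sums do not mean that each gene stayed level. The part of any of these markers in the chaperone results was not tested. In bulk RNA, a change in the number of cells of a type and a change in RNA per cell cannot be told apart.

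Of 32 J-domain genes tested 9 passed, or 28.1%, close to the 25.8% of all coding genes. Of the 9, 8 belong to class C, which shares the J domain and little else. The 22 class C genes tested gave 4 rises and 4 falls (18.2% each, against 16.2% and 9.62% of all coding genes) and a median of 0.11. Dnajc21, which encodes a factor that matures the large ribosomal subunit, read -0.73, -0.75 and -0.77 in H/R scans, against 0.59, 0.38 and 0.38 in control scans. It fell by 1.23 ± 0.11 (to 0.426 of control, adjusted p = 0.00476). Dnajc21 alone among the 14 called members also passed with any 1 array left out (differences of -1.34 to -1.13). Dnajc9, a histone H3-H4 chaperone, read -4.37, -4.50 and -4.50 in H/R scans, against -4.06, -4.01 and -4.03 in control scans, and fell by 0.40 ± 0.10 (adjusted p = 0.0459). Dnajc25 read 0.08, 0.30 and 0.25 in H/R scans, against 0.65, 0.86 and 0.87 in control scans, and fell by 0.58 ± 0.13 (adjusted p = 0.0363). Dnajc5b, a relative of the synaptic cysteine string protein gene Dnajc5, read -6.55, -6.52 and -6.41 in H/R scans, against -5.88, -5.46 and -5.64 in control scans. It fell by 0.79 ± 0.14 (adjusted p = 0.0216), while Dnajc5 itself differed by -0.02 ± 0.12; the difference between these genes was not tested. With normexp background correction Dnajc9 and Dnajc5b, both dim, turned to 0.45 and 0.76 and did not pass.

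Rises were called for 4 class C genes. Dnajc22, the relative of the Drosophila gene wurst that acts in endocytosis there, read 1.12, 1.14 and 1.19 in H/R scans, against 0.12, 0.39 and 0.42 in control scans. It rose by 0.88 ± 0.13 (1.84-fold, adjusted p = 0.0134). Dnajc12, which assists the aromatic amino acid hydroxylases, read -4.13, -4.10 and -4.06 in H/R scans, against -5.02, -4.80 and -4.69 in control scans, and rose by 0.77 ± 0.13 (1.71-fold, adjusted p = 0.0171). Dnajc18, a J-domain protein of the ER membrane, read 1.56, 1.68 and 1.63 in H/R scans, against 0.76, 0.95 and 0.93 in control scans, and rose by 0.76 ± 0.11 (1.69-fold, adjusted p = 0.0135). Every H/R scan of these genes lay above every control scan, and scans did not overlap in either direction for 66.1% of all coding genes. Dnajc28 read -5.18, -5.16 and -5.29 in H/R scans, against -5.84, -5.64 and -5.58 in control scans, and rose by 0.52 ± 0.12 (1.44-fold, adjusted p = 0.0354), a call lost with quantile and median scaling. Of the J-domain genes named as mitochondrial at the start, Dnajc19, which serves protein import, differed by 0.53 ± 0.16. Dnajc30 differed by 0.33 ± 0.10 and Dnajc15 by -0.29 ± 0.13, and none of the 3 passed (adjusted p = 0.0689, 0.0766 and 0.171). Dnajc19 was well above background in 3 of 3 H/R scans but 1 of 3 control scans. Like Hspa12a it was tested only through the group where it is higher, so its difference carries little. Dnajc16 was the least certain member, with 1.27 between the control arrays and a difference of -0.39 ± 0.46.

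**Figure D4:**
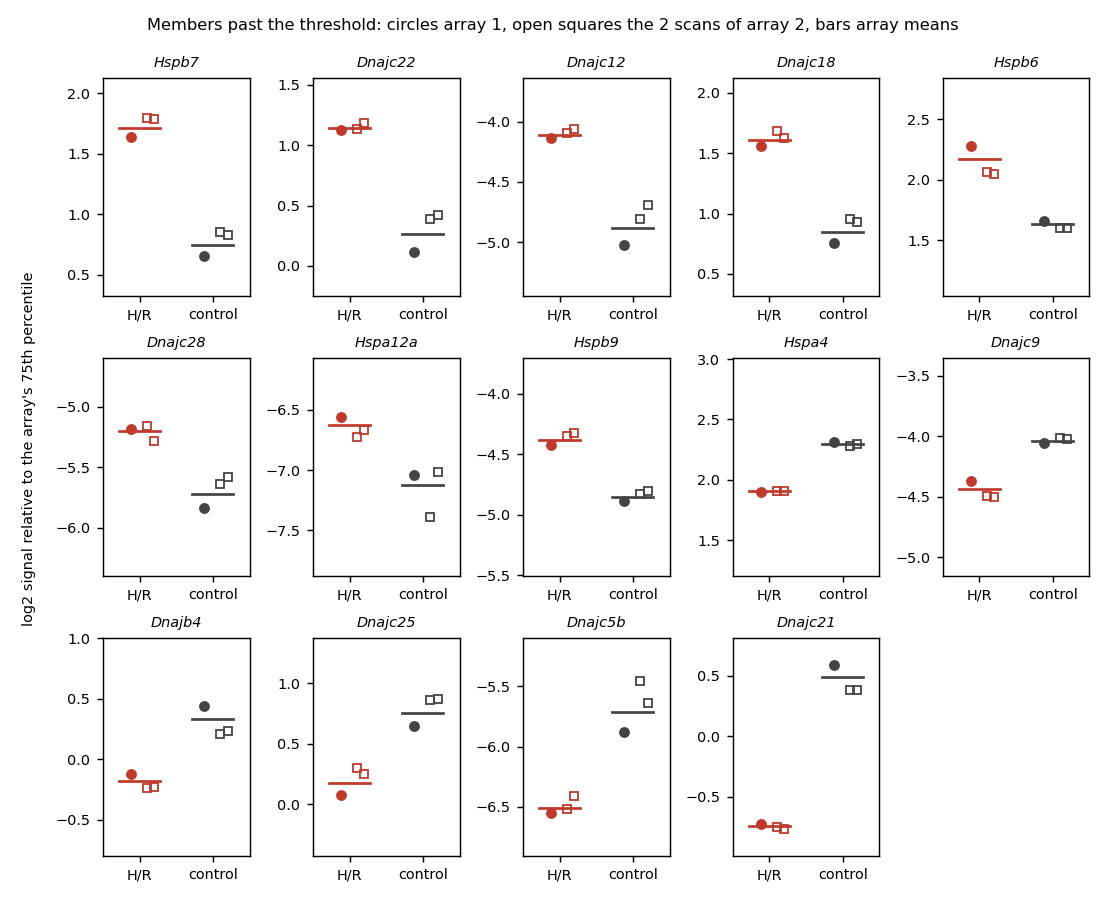
Log2 signal relative to the array's 75th percentile (vertical axis, each panel spanning 1.8 units) in every scan of the 14 members past the threshold, ordered by difference, H/R at the left and control at the right of each panel. Circles are array 1, open squares the 2 scans of array 2 and bars the mean of the arrays; in every panel the groups stand apart, by 0.97 in the mean for Hspb7 and by -1.23 for Dnajc21.

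The classical J-domain classes, A and B, gave 1 call. Of 10 genes tested in these classes 0 rose and 1 fell, where 16.2% and 9.62% of all coding genes did. Dnajb4, a heat-inducible class B gene, read -0.12, -0.24 and -0.23 in H/R scans, against 0.44, 0.21 and 0.24 in control scans, and fell by 0.51 ± 0.12 (to 0.701 of control, adjusted p = 0.0405). Dnaja1, a main partner of cytosolic HSP70, read 4.72, 4.47 and 4.49 in H/R scans, against 4.51, 4.56 and 4.60 in control scans. The groups overlapped, and it differed by 0.05 ± 0.12 (interval -0.26 to 0.36). Dnaja4 differed by -0.52 ± 0.14, as far as Dnajb4, with a larger gap between arrays, and did not pass (adjusted p = 0.0606). Dnajb5 lay just outside the threshold, at -0.34 ± 0.09 (adjusted p = 0.0576), and Dnajb13 had the largest positive difference of class B, 0.29 ± 0.15.

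BAG genes did not pass in either direction, where 25.8% of all coding genes passed in 1 or the other. Of the 6 tested, 2 stood at an unadjusted limma p under 0.05, as did 6309 of all 15899 probes. Bag3, the stress-inducible member that links HSP70 to autophagy, read 1.78, 2.09 and 2.12 in H/R scans, against 1.47, 1.78 and 1.79 in control scans. The arrays within each group differed by as much as the groups did, and the difference was 0.31 ± 0.17 (interval -0.12 to 0.75, adjusted p = 0.232). Bag4, also called SODD, read -1.94, -2.04 and -2.10 in H/R scans, against -1.65, -1.62 and -1.65 in control scans, a difference of -0.36 ± 0.10 just outside the threshold (adjusted p = 0.0575). Bag2 and Bag1 differed by -0.32 ± 0.09 and -0.27 ± 0.11. Hsf2, a heat shock factor that can pair with HSF1, read 2.33, 2.35 and 2.33 in H/R scans, against 2.42, 2.53 and 2.54 in control scans. It differed by -0.14 ± 0.10 (interval -0.39 to 0.11, adjusted p = 0.326). Of the other names taken by the symbol rule, the HSP70 nucleotide exchange factor Hspbp1 differed by -0.33 ± 0.10 and Hspbap1 by 0.07 ± 0.10 (adjusted p = 0.0668 and 0.614).

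Partners of these chaperones that the symbol rule does not take gave 2 calls. Of 42 such genes listed 33 had a matched probe and 31 were tested, of which 1 rose and 1 fell (6.45% in all, against 25.8% of all coding genes), with a median of -0.02. With any 1 array left out Fkbpl did not pass, and Fkbp5 passed only without control array 1. Fkbp5, a glucocorticoid-induced co-chaperone of HSP90, read 0.82, 0.96 and 0.98 in H/R scans, against 1.45, 1.64 and 1.63 in control scans, and fell by 0.65 ± 0.12 (to 0.639 of control, adjusted p = 0.0215). Fkbpl, an FKBP-like gene of the HSP90 complex, read -2.39, -2.21 and -2.26 in H/R scans, against -2.93, -2.97 and -2.93 in control scans, and rose by 0.63 ± 0.10 (1.55-fold, adjusted p = 0.0168). Among the HSP90 partners Stip1, which hands substrates on from HSP70, differed by 0.03 ± 0.16, Ptges3 (p23) by -0.05 ± 0.16 and Cdc37, which delivers kinases, by -0.09 ± 0.11. The HSF1-induced genes Serpinh1, a collagen chaperone, and Ubb, a polyubiquitin gene, differed by 0.23 ± 0.16 and 0.26 ± 0.12 and did not pass (adjusted p = 0.327 and 0.189). Tcp1, the remaining TRiC subunit, differed by -0.36 ± 0.12 (adjusted p = 0.0923). The 6 ER genes left out by the rule gave 0 rises and 0 falls, with a median of -0.28. Of them 3 stood at an unadjusted limma p under 0.05, as did 6309 of all 15899 probes. Hspa5 (BiP) differed by 0.08 ± 0.12 and Hsp90b1 (GRP94) by 0.00 ± 0.11.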

How the data were processed

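The authors deposited scanner intensity files, extracted with Agilent Feature Extraction 11.0.1.1 per the submitters' processing notes, and a table of normalized log2 values; no source used here gives its normalization. Flags in the deposited files (other values, coded 0 or 1) mark outlier and well-above-background spots. Here control spots and outlier-flagged spots were removed, the remaining spots of each probe averaged as log2 processed signal, and each array's 75th percentile subtracted. Replicates 2 and 3 of a group were averaged as 1 array. H/R was compared with control by limma 3.58.1 (R 4.3.3), two-sided, Benjamini-Hochberg adjusted over 15899 probes (residual degrees of freedom 2, prior 2.86). A probe entered the test where well above background (over 0.5 of the spots) in all scans of a group. Of 15323 coding probes 14274 received a symbol from a GRCr8 table used for names only; a gene is its brightest probe. The 4 arrays had 4 slide positions, and an effect of position cannot be told apart from that of H/R.

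After the main fit, the same fit was run on simulated arrays with the means and spreads of these data and 200 probes changed by known amounts. Of 157 calls there, 8 were probes left unchanged, and some changed probes were missed. The simulated arrays were independent, without effects of slide position, and only 200 of 15899 probes were changed. In the real arrays 23.7% of probes passed, so these counts do not give the error rate of the results above. The members and gene lists were chosen with earlier results of these data known. Named are all called members and partners, a fixed list, the extremes of each role and members with an adjusted p between 0.05 and 0.06; a few further genes are named for their role, chosen after their values were seen. Python 3.11.15, pandas 2.3.3 and matplotlib 3.10.9 were used.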

Additional observations from a re-analysis of the deposited data

How the results depend on the processing

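The 2 arrays per group limit all counts. Shares of all coding genes also moved with the setting, and counts given here without such a share are not set against it. With 1 array left out, fewer of all coding genes passed in either direction too. Members higher and lower in H/R (8 and 6 as reported) numbered 5 and 10 with quantile scaling, also 5 and 10 in the authors' deposited table, and 4 and 13 with median scaling. With 6 scans as separate samples, which counts scans of 1 array as independent, they numbered 15 and 19. These are 22.1% and 27.9%, against 31.3% and 23% of all coding genes. Without the filter on dim probes 0 were higher and 1 lower, with 23 at an unadjusted limma p under 0.05, as were 5800 of all 24578 probes. With normexp (on the median signals, chosen after seeing the data because the files hold no mean signal, so the planned version was not run) 0 and 0 passed, with 12 at an unadjusted limma p under 0.05. There 12 of the 14 called members kept their direction, and Dnajc5b (0.76) and Dnajc9 (0.45) reversed; the cause was not tested. In the other 12 settings all 14 kept their direction, which most of these settings could not change. The H/R and control scans of all 14 did not overlap, so no use of the same scaled scans could turn a sign. The changed scalings and the authors' deposited table could have done so. With 1 array left out, so that the lone array is assumed to vary like the others, 0 to 7 members were higher and 1 to 4 lower: 1 and 1 without H/R array 1, 0 and 1 without H/R array 2, 5 and 2 without control array 1, 7 and 4 without control array 2. Dnajc21 passed in all 4 of these, Hspb7 in 3, and Dnajc25, Dnajc9, Hspa12a, Hspa4, Hspb6 and Hspb9 in 0. The median over members was -0.0883 with median scaling, -0.00199 with 6 scans, -0.0741 in the second scan alone (a value with no test, added after seeing the data) and -0.0306 to 0.0951 with 1 array left out. Partners outside the rule higher and lower numbered 1 and 2 with quantile scaling and in the authors' deposited table, 5 and 5 with 6 scans, 0 and 0 with normexp or no filter, and 0 higher and 0 to 1 lower with 1 array left out. The number of heat-inducible members whose interval ended below a 2-fold rise, a result added after seeing the data, was 14 in every setting except without H/R array 2, where it was 13. Replicate numbers are shared by the groups only as numbers, and deviations of arrays with the same number correlated at r = 0.153. A replicate block gave 9 members higher and 5 lower (13.2% and 7.35%, against 16.2% and 10.1% of all coding genes). It kept 12 of the 14 calls: Hspa4 (limma adjusted p = 0.0553) and Dnajc9 (0.0619) did not pass, and Dnaja4 did (0.0362).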
